A study of Mus musculus with 13 samples.

Results

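The cGAS-STING pathway and 3 chemokines that it induces were examined in bulk RNA of MP EPO-GEMM ovarian tumors and of wild-type (WT) mouse ovaries. The genes were taken by symbol from the deposited table and number 9 of the 53465 genes listed there. They are Mb21d1, Tmem173, Tbk1, Irf3, Irf7 and Trex1 of the pathway, and the chemokine genes Ccl5, Cxcl9 and Cxcl10. Mb21d1 is the older symbol of the gene for cGAS, and Tmem173 that of the gene for STING. The design compared tumors with the normal ovary, which asks how the RNA of these genes differs between the 2 tissues.

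The WT group was the ovary of non-treated WT C57BL/6 females (n = 3). The MP group was Myc;p53-/- EPO-GEMM tumors (n = 10), also non-treated. They arose after plasmids were injected at the left ovary of WT C57BL/6 females aged 8 to 12 wk. Ovarian and fallopian tube tissue was then electroporated. The plasmids were a vector with Cas9 and an sgRNA against Trp53, a vector with a MYC transposon, and the Sleeping Beauty transposase that inserts it. No age is given separately for the WT ovaries. Electroporation does not choose a cell type, the tumors are described as oligoclonal, and RNA came from whole tumor tissue taken at end point, so tumor cells and host cells were measured together. The labels do not say that each library came from a separate mouse, and P values then measure only the spread between these libraries. Levels are given as TPM, a transcript abundance that is scaled by gene length and sums to the same total in each library.

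Reads worked back from the table came to between 31445004 and 64013840 per WT ovary and between 3892690 and 19906507 per MP tumor. Library names carry 1 of 3 numbers, by which libraries are called here sets A, B and C; whether the numbers mark batches of preparation or sequencing is not stated. Set A held the 3 WT ovaries and MP tumors 1 to 3, set B MP tumors 4 to 6 and set C MP tumors 7 to 10, so that set and condition could be told apart only within set A. Trp53, the gene targeted in the tumors, was at 80.7 to 85.4 TPM in the WT ovaries, at 4.30 to 26.0 TPM in 9 MP tumors and at 187 TPM in the library labelled MP tumor 10. In MP tumor 2, 10 genes held 55.1% of all TPM, against at most 20.6% in any other library. The summed TPM of 12 ovarian somatic and germ cell markers was 28387 to 34327 in WT ovaries and 22.97 to 2291 in MP tumors.

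As background, cGAS is a sensor that binds DNA in the cytosol and makes a cyclic dinucleotide, cGAMP. This messenger binds STING, a membrane protein of the endoplasmic reticulum, which recruits the kinase TBK1, and TBK1 phosphorylates the transcription factor IRF3. IRF3 and its relative IRF7 then turn on type I interferon and chemokine genes, while the exonuclease TREX1 degrades cytosolic DNA and so limits the signal. CCL5 attracts T cells and other leukocytes, and CXCL9 and CXCL10 attract T and NK cells that carry CXCR3. The pathway is switched by its messenger and by phosphorylation, neither of which RNA levels measure.

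Cxcl9 and Cxcl10 are neighbors on chromosome 5 (GRCm38) and both lie on the minus strand, with starts 20810 bases apart. The 250 bases before each start are shown here as a description. Any part of these sequences in the RNA levels was not tested. Capitals mark matches to 2 motifs. The ISRE-like motif, the type of element bound by IRF factors, reads GAAA, any 2 bases, GAAA, and the kappa B-like motif, the type bound by NF-kappa B, reads GGG, any 3 bases, TTCC. The sequences are those of RefSeq for GRCm38.p6, at chr5:92348890-92349139 for Cxcl10 and chr5:92328080-92328329 for Cxcl9, both written 5′ to 3′ on the minus strand.
Cxcl10: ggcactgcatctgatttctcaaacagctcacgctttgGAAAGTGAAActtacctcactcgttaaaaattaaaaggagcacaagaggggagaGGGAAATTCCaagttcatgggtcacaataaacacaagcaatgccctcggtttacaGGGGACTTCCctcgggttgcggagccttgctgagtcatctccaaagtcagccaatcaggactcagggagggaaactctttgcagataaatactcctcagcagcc
Cxcl9: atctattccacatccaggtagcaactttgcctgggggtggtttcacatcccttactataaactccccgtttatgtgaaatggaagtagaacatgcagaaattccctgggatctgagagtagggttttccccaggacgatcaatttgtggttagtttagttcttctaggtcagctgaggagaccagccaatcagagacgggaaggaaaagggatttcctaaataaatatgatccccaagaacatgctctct

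Cxcl10 held 1 ISRE-like match, which begins 213 bases before the start, and 2 kappa B-like matches, which begin 159 and 104 bases before it, whereas the Cxcl9 window held neither. On both strands of windows of 300 bases (250 before and 50 after the start), the ISRE-like motif was found in 3.44% and the kappa B-like motif in 5.56% of 32851 mouse promoters. A window was at hand for 7 of the 9 genes. Of these, only Cxcl10 held the ISRE-like motif, and only Cxcl10 and Mb21d1 held the kappa B-like one, which begins 81 bases before the start of Mb21d1. The 2 motifs were counted separately and do not overlap in the sequence printed. A match describes letters and is not a measured site.

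Of the 9 genes, 8 were tested and 0 passed an adjusted P of 0.05 in either direction when the 10 MP tumors were compared with the 3 WT ovaries by limma on log2(TPM + 1). Of 17277 genes tested, 16.8% passed, 2.51% higher and 14.3% lower in MP tumors. One of the genes, Irf7, had an unadjusted P under 0.05. Other fits also called 0 of the 8 after median-of-ratios scaling (18.4% of all genes called, 7.37% higher and 11% lower) and after quantile normalization (23.1%, 11% higher and 12.1% lower), as well as without MP tumors 2 and 10 (20.7%, 3.91% higher and 16.8% lower). With voom on the reads worked back Irf7 was called lower (34.3% of all genes called, 10.9% higher and 23.4% lower), and with the set of the library name as a covariate Tmem173 and Irf7 were (54.6%, 5.17% higher and 49.4% lower). The median log2 fold change of the 8 genes was -0.69, and that of all tested genes was -0.58, so a log2 fold change is also given below relative to -0.58. Positions given below are those of the table, which for 8 of the 9 genes equal GENCODE release M21 of GRCm38; for Tmem173 the table's length of 2302 bases differs from the 2741 exon bases of that release. Exon bases shared with a gene on the opposite strand make up 4.87% of Mb21d1, 2.56% of Irf3, 1.19% of Irf7 and 5.91% of Cxcl10, and without strand the reads there cannot be told apart. All 8 passed the filter of at least 1 TPM in at least 3 libraries; Trex1 did not.

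**Figure D1:**
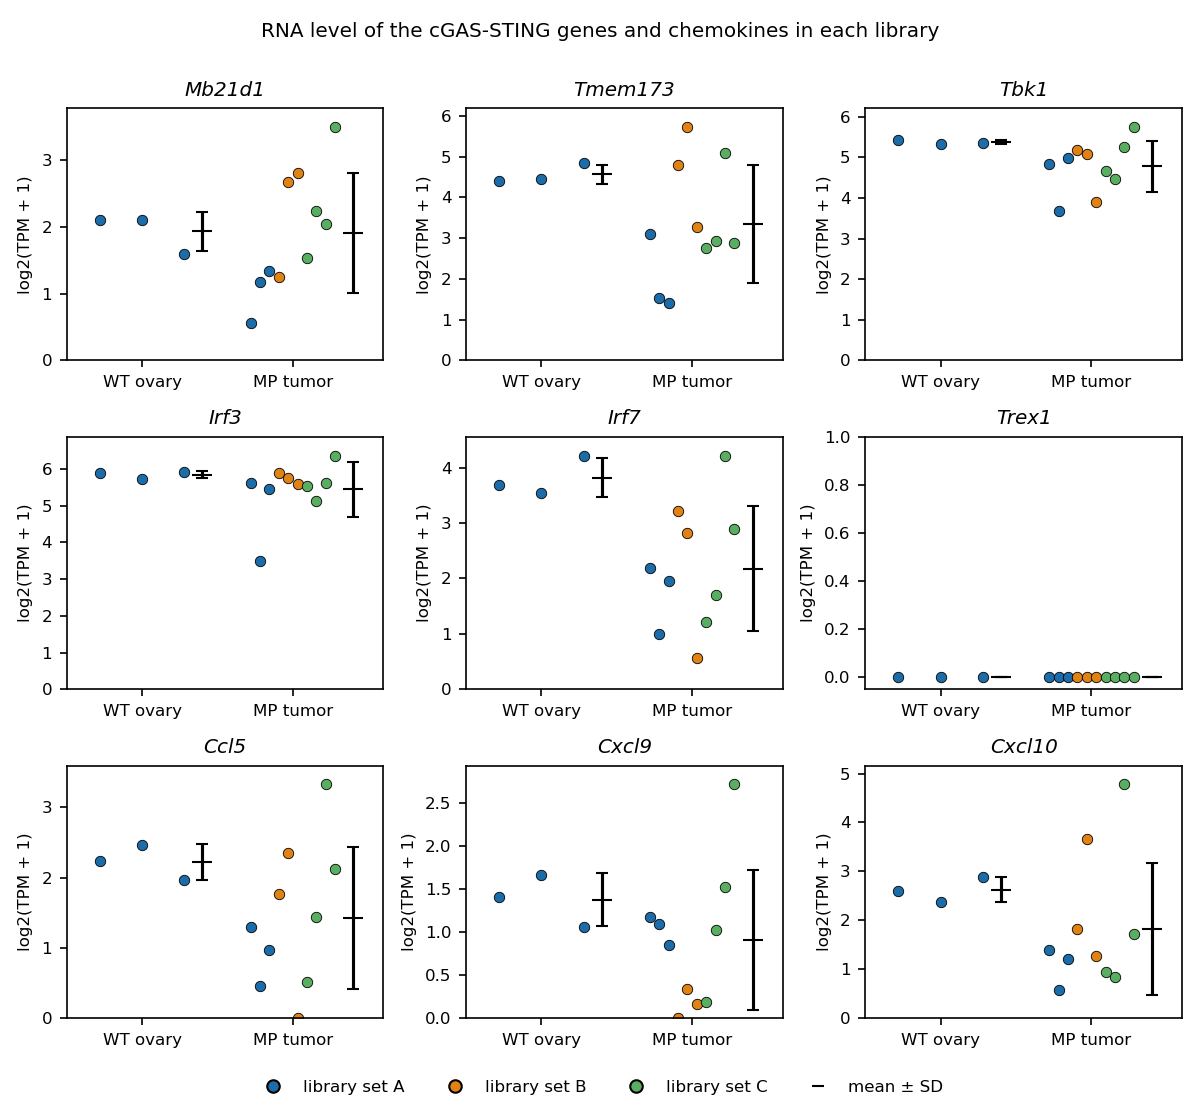
RNA level of each of the 9 genes as log2(TPM + 1), with 1 point per library (3 WT ovaries, 10 MP tumors in replicate order) colored by library set, and the mean ± SD beside each group. The WT ovaries sit close together, while the MP tumors range from below to above them for 7 of the genes, Irf7 having no tumor above the WT range and Trex1 lying at 0 throughout.

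Mb21d1 (ENSMUSG00000032344, chromosome 9: 78430526 to 78443237, minus strand), the DNA sensor, was the lowest of the pathway genes other than Trex1 in the WT ovaries. WT ovaries 1, 2 and 3 held 3.28, 3.29 and 2.03 TPM. The MP tumors held between 0.472 and 10.3 TPM, with a median of 2.501. Both ends lay outside the WT range, with 5 tumors below it, 1 within it and 4 above it, and the highest level was in the library labelled MP tumor 10. Levels averaged 2.87 ± 0.726 TPM (SD, n = 3) and 3.50 ± 3.00 TPM (SD, n = 10) in ovaries and tumors. The log2 fold change was -0.02 (SE 0.54, 95% interval -1.18 to 1.14, limma adjusted P = 0.983), or 0.56 relative to all genes. Within set A alone, where the 3 tumors held 0.472, 1.26 and 1.52 TPM, it was -0.91 (limma adjusted P = 0.0232), 0.29 above the median gene of that fit.

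Tmem173 (ENSMUSG00000024349, chromosome 18: 35733678 to 35740554, minus strand), the gene for the adaptor STING, held 20.3, 20.9 and 27.7 TPM in the 3 WT ovaries. Across MP tumors it ran from 1.64 to 52.2 TPM, with a median of 7.08. MP tumors 5 and 9 were above every WT ovary with 52.2 and 32.9 TPM, MP tumor 4 was within their range with 26.9, and the other 7 were at 8.64 TPM or less. The tumors thus split around the WT range with a gap between 8.64 and 26.9 TPM. On the log2(TPM + 1) scale its SD over tumors was 1.44, larger than that of 74.9% of tested genes within 0.5 log2 of its mean level, against 0.24 over WT ovaries. Levels averaged 22.97 ± 4.07 TPM (SD, n = 3) over WT ovaries and 15.0 ± 16.7 TPM (SD, n = 10) over tumors. Its log2 fold change was -1.22 (SE 0.79, 95% interval -2.91 to 0.47, limma adjusted P = 0.287), or -0.65 relative to all genes. Within set A it was -2.56 (limma adjusted P = 0.00209), or -1.37 relative to the median gene of that fit, the 3 tumors being at 7.55, 1.88 and 1.64 TPM.

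Tbk1 (ENSMUSG00000020115, chromosome 10: 121546455 to 121586787, minus strand), the kinase downstream of STING, varied least among the tumors, with a 4.48-fold range and an SD of 0.63 on the log2(TPM + 1) scale. It was at 41.9, 38.9 and 40.2 TPM in the WT ovaries and between 11.8 and 52.8 TPM in MP tumors, with a median of 29.0. In TPM as deposited, all tumors apart from the library labelled MP tumor 10 were below the lowest of the ovaries. On that scale 69.9% of all tested genes had a negative log2 fold change. Means were 40.3 ± 1.504 TPM (SD, n = 3) and 28.7 ± 12.0 TPM (SD, n = 10). Against WT ovaries the log2 fold change was -0.59 (SE 0.41, 95% interval -1.47 to 0.29, limma adjusted P = 0.323), or -0.01 relative to all genes. Within set A it was -0.87 (limma adjusted P = 0.0893).

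Irf3 (ENSMUSG00000003184, chromosome 7: 44997648 to 45002848, plus strand), the factor phosphorylated by TBK1, was the most abundant of the 9 per length in 12 of 13 libraries, MP tumor 2 being the exception. WT ovaries held 58.1, 52.3 and 59.7 TPM, and MP tumors 10.4 to 81.3 TPM with a median of 47.3. The lowest was MP tumor 2 and the highest the library labelled MP tumor 10, the other 8 lying between 34.2 and 58.2. Levels averaged 56.7 ± 3.94 TPM over ovaries and 46.8 ± 17.9 TPM over tumors (SD, n = 3 and 10). The log2 fold change was -0.40 (SE 0.45, 95% interval -1.37 to 0.56, limma adjusted P = 0.538), or 0.17 relative to all genes, and -0.996 within set A (limma adjusted P = 0.159). Both values moved with MP tumor 2, without which they were -0.19 and -0.32, and that of Tbk1 within set A was then -0.47. For both Tbk1 and Irf3 the sign depended on the scaling, with 0.11 and 0.30 after median-of-ratios scaling, in which the median of all genes was -0.02.

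Irf7 (ENSMUSG00000025498, chromosome 7: 141262706 to 141266481, minus strand), the interferon-inducible relative of Irf3, had the largest difference from the WT level when all tumors were compared, whereas within set A that of Tmem173 was larger. It was at 11.9, 10.7 and 17.6 TPM in the WT ovaries and between 0.470 and 17.4 TPM in MP tumors, with a median of 3.22. Of the tumors 9 were below the lowest WT ovary, and MP tumor 9 alone, with 17.4 TPM, was within the WT range. Means were 13.4 ± 3.68 TPM (SD, n = 3) and 4.98 ± 5.09 TPM (SD, n = 10). The log2 fold change was -1.64 (SE 0.65, 95% interval -3.03 to -0.25), or -1.07 relative to all genes, and it did not pass adjustment (unadjusted limma P = 0.0235, adjusted P = 0.0941). Without MP tumor 9 it was -1.87 (limma adjusted P = 0.0300). Within set A it was -2.11 (limma adjusted P = 0.00171), or -0.91 relative to the median gene of that fit. After median-of-ratios scaling it was -1.03 (limma adjusted P = 0.209).

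The level of Irf7 relative to Irf3 depends less on the common scale of a library. As a log2 ratio of TPM + 1 it was -2.19, -2.18 and -1.71 in the WT ovaries and ran from -5.02 in MP tumor 6 to -1.42 in MP tumor 9, with a median of -3.43. It was below the WT range in 9 of the 10 tumors and above it in MP tumor 9. The ratio of Mb21d1 to Tmem173 ran from -3.54 to 0.60 in tumors, against -3.24 to -2.32 in WT ovaries. Messages for the sensor and for the adaptor were thus nearly level in MP tumor 3, with a ratio of -0.06, whereas Tmem173 was in large excess in MP tumor 4, with -3.54.

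Trex1 (ENSMUSG00000049734, chromosome 9: 109057933 to 109059734, minus strand), the exonuclease, was listed at 0 in all 13 libraries. A count of 0 allows up to 3 reads, which is 0.134 to 0.284 TPM in the WT ovaries and 0.298 to 2.07 TPM in the MP tumors, counting error only. In GENCODE release M21 all of its 1147 exon bases (100%) are also exon bases of Atrip on the same strand, and Atrip held 10 to 24 reads in WT ovaries and 1 to 11 in MP tumors. The part of this overlap in the listed 0 was not tested, and no level of Trex1 can be stated here.

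**Figure D2:**
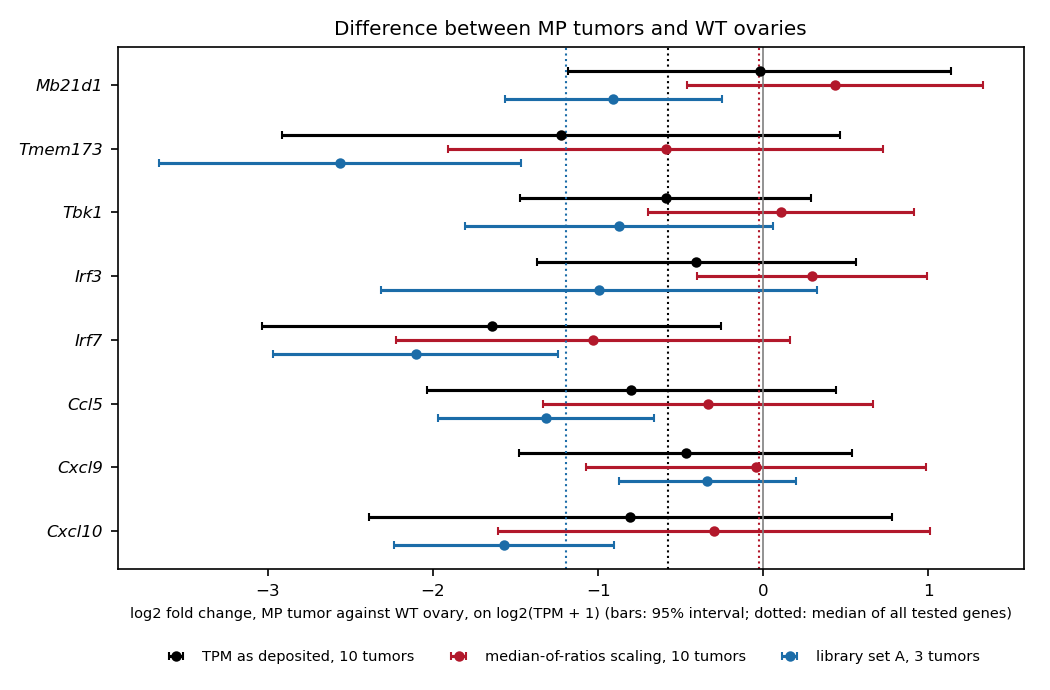
log2 fold change of MP tumors against WT ovaries for the 8 tested genes, with 95% intervals, for TPM as deposited, after median-of-ratios scaling, and within set A (3 tumors against 3 ovaries); dotted lines mark the median of all tested genes in each. With all tumors and TPM as deposited only the interval of Irf7 excludes 0, from -3.03 to -0.25, before adjustment.

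The 3 chemokine messages were scarce in both tissues. Ccl5 (ENSMUSG00000035042, chromosome 11: 83525778 to 83530518, minus strand) was at 3.72, 4.52 and 2.89 TPM in the WT ovaries, resting on 53, 40 and 54 reads. In MP tumors it ran from 0 to 9.02 TPM with a median of 1.58, resting on 0 to 23 reads. MP tumor 6 was at 0, which allows up to 1.11 TPM, and MP tumor 9 was the only tumor above the WT range. Of the other tumors, 2 were within that range and 6 below it. Levels averaged 3.71 ± 0.819 TPM over ovaries and 2.38 ± 2.68 TPM over tumors (SD, n = 3 and 10). For Ccl5 the log2 fold change was -0.80 (SE 0.58, 95% interval -2.03 to 0.44, limma adjusted P = 0.342), or -0.22 relative to all genes. Within set A it was -1.32 (limma adjusted P = 0.00428), or -0.12 relative to the median gene of that fit, in which 57.3% of all tested genes were called lower. With 0.1 added to TPM in place of 1, the value over all tumors was -1.45 (limma adjusted P = 0.345), or -0.64 relative to all genes.

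Cxcl10 (ENSMUSG00000034855, chromosome 5: 92346638 to 92348889, minus strand) had the widest range over tumors of the genes above 0 in every library, 55.1-fold against 1.53-fold over WT ovaries. It held 5.08, 4.19 and 6.40 TPM in the WT ovaries (170, 87 and 281 reads). The MP tumors ran from 0.479 to 26.4 TPM (5 to 158 reads) with a median of 1.51. MP tumors 9 and 5 stood above all WT ovaries with 26.4 and 11.6 TPM, and the other 8 were below all of them, at 2.54 TPM or less. Mean levels of 5.23 ± 1.11 TPM (SD, n = 3) and 4.93 ± 8.22 TPM (SD, n = 10) were therefore near each other while the medians were not. For Cxcl10 the log2 fold change was -0.80 (SE 0.74, 95% interval -2.39 to 0.78, limma adjusted P = 0.455), or -0.23 relative to all genes. Within set A, where no tumor exceeded 1.61 TPM, it was -1.57 (limma adjusted P = 0.00204), or -0.38 relative to the median gene of that fit. With 0.1 added to TPM in place of 1, the value over all tumors was -1.20 (limma adjusted P = 0.391), or -0.40 relative to all genes.

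Cxcl9 (ENSMUSG00000029417, chromosome 5: 92321347 to 92328079, minus strand) was the least abundant of the 8 in each WT ovary, with 1.65, 2.16 and 1.07 TPM (74, 60 and 63 reads). It was between 0 and 5.54 TPM in MP tumors (0 to 27 reads), with a median of 0.912. MP tumor 4 was at 0, which allows up to 0.570 TPM, and MP tumors 5, 6 and 7 rested on 1 read each, so that their order was not detectable at this depth. The library labelled MP tumor 10 was the only one above the WT range, and levels averaged 1.63 ± 0.544 and 1.21 ± 1.64 TPM over ovaries and tumors (SD, n = 3 and 10). The log2 fold change was -0.47 (SE 0.47, 95% interval -1.48 to 0.54, limma adjusted P = 0.494), or 0.11 relative to all genes, and -0.34 within set A (limma adjusted P = 0.232). With 0.1 added to TPM in place of 1, the value over all tumors was -1.22 (limma adjusted P = 0.406), or -0.41 relative to all genes.

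The neighbors Cxcl9 and Cxcl10 differed in which tumors were high. Their log2 ratio of TPM + 1 (Cxcl9 to Cxcl10) was -1.84 to -0.72 in WT ovaries and -3.32 to 0.99 in MP tumors. MP tumors 5 and 9 were lowest with -3.32 and -3.25, both under the lowest of the ovaries, and at the other end was the library labelled MP tumor 10 with 0.99. In that library Cxcl9 rested on 26 reads and Cxcl10 on 8, while in MP tumor 5 they rested on 1 and 33.

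**Figure D3:**
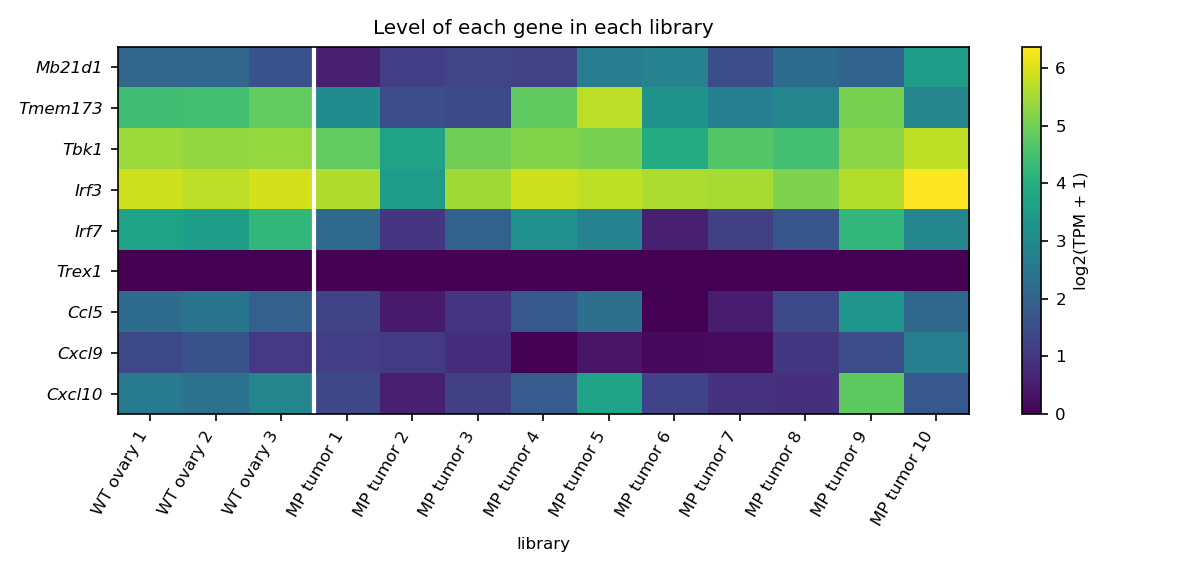
Level of each of the 9 genes in each library as log2(TPM + 1), with the WT ovaries left of the white line. Irf3 and Tbk1 are the brightest rows, Trex1 is at 0, and MP tumors 5 and 9 are the tumors in which both Tmem173 and Cxcl10 lie above every WT ovary.

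The median of Tmem173 over tumors was 1.88 TPM in set A, 26.9 TPM in set B and 6.51 TPM in set C. That of Mb21d1 was 1.26, 5.36 and 3.41 TPM in the same order. The genes that passed within set A were 5 of the 8 (Mb21d1, Tmem173, Irf7, Ccl5 and Cxcl10), all lower in its tumors, in a fit in which 63.7% of all tested genes passed, 57.3% lower and 6.44% higher. The median log2 fold change of all genes there was -1.19. A share of 5 in 8 is near that background, and for the tumors of sets B and C set and condition cannot be told apart.

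The messages of interferon beta and IL-6, products of the same pathway, were listed at under 1 TPM in every library. Ifnb1 was at 0 in the 3 WT ovaries and in 6 of 10 MP tumors, and its highest listed level was 0.913 TPM in MP tumor 3 (6 reads). A count of 0 allows up to 0.205 to 0.434 TPM in those ovaries and 1.42 to 3.16 TPM in those tumors, the latter all above that highest listed level. Il6 was at 0.134 to 0.697 TPM in WT ovaries and 0 to 0.860 TPM in MP tumors, resting on 3 to 33 and on 0 to 15 reads. Neither was tested.

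The other genes of DNA sensing and STING regulation (22, all tested) passed the test in 5 cases, 2 higher and 3 lower, with a median log2 fold change of -0.93 against -0.58 for all genes. Banf1, whose product binds DNA in competition with cGAS, averaged 395 ± 49.7 TPM over WT ovaries and 1340 ± 522 TPM over tumors (SD, n = 3 and 10) and rose by 1.66 on the log2 scale (SE 0.37, limma adjusted P = 0.00641). Rnaseh2b, a subunit of the enzyme that removes ribonucleotides from DNA, rose by 1.27 on the log2 scale (limma adjusted P = 0.0496), a call lost after median-of-ratios scaling (limma adjusted P = 0.0513) and without MP tumors 2 and 10 (limma adjusted P = 0.0534). Ifi204, a mouse relative of the DNA sensor IFI16, fell by 2.96 on the log2 scale (limma adjusted P = 0.00161), from 36.9 ± 9.94 to 4.51 ± 3.11 TPM (SD, n = 3 and 10). Enpp1, which hydrolyses cGAMP outside cells, fell by 2.45 on the log2 scale (limma adjusted P = 0.00563), and Sqstm1, an autophagy receptor, fell by 1.99 (limma adjusted P = 0.0278).

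**Figure D4:**
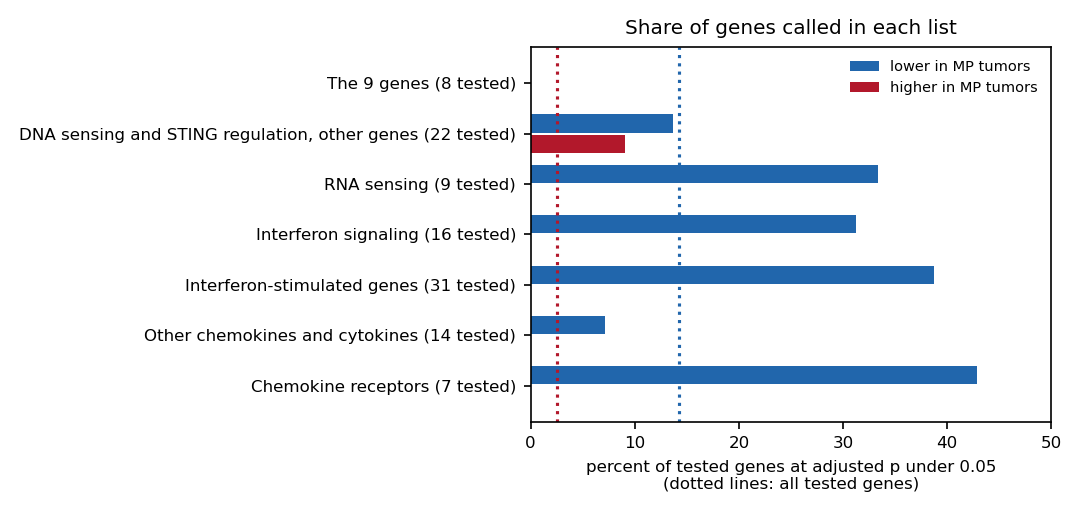
Percent of the tested genes of each list that passed an adjusted P of 0.05 lower (blue) or higher (red) in MP tumors, with dotted lines for all tested genes (14.3% and 2.51%). The 9 genes have no bar, since 0 of 8 passed.

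Of 9 genes of RNA sensing 3 fell and 0 rose, with a median log2 fold change of -1.58. Ddx58, which encodes the sensor RIG-I, fell by 2.65 on the log2 scale (limma adjusted P = 0.0165), Ticam1, an adaptor of Toll-like receptor signaling, fell by 2.07 (limma adjusted P = 0.0461), and the sensor gene Ifih1 fell by 1.77 (limma adjusted P = 0.0491), which median-of-ratios scaling ended (limma adjusted P = 0.123). Of the 18 genes of interferon signaling 16 were tested, 5 fell and 0 rose, with a median of -1.47. Jak1, a kinase of interferon receptors, went from 276 ± 58.3 to 47.0 ± 49.4 TPM (SD, n = 3 and 10) and fell by 3.11 on the log2 scale (limma adjusted P = 0.0123). The gamma interferon receptor gene Ifngr1 fell by 1.47 on the log2 scale (limma adjusted P = 0.0128), and after median-of-ratios scaling was at -0.76 and not called (limma adjusted P = 0.0990).

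Interferon-stimulated genes, a class to which Irf7 and Cxcl10 also belong, fell in 12 of 31 tested cases (33 listed) and rose in 0, with a median of -1.65. Gbp5, a guanylate-binding protein gene, fell by 1.66 on the log2 scale (limma adjusted P = 0.00436), from 3.59 ± 0.569 to 0.550 ± 0.714 TPM (SD, n = 3 and 10), and reached the filter only with the WT ovaries counted. Rtp4 fell by 2.53 on that scale (limma adjusted P = 0.00677). After median-of-ratios scaling 7 of 31 fell, at a median of -1.12, beside 11% of all tested genes.

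The receptors through which cells answer these chemokines were measured in the same fit. Of 9 chemokine receptor genes 7 were tested, 3 fell and 0 rose. Cxcr3, the receptor of CXCL9 and CXCL10, averaged 3.66 ± 0.634 TPM over WT ovaries and 0.209 ± 0.338 TPM over tumors (SD, n = 3 and 10), where it was under 1 TPM throughout, and fell by 1.98 on the log2 scale (limma adjusted P = 0.000101). Cxcr6, the receptor of CXCL16, went from 6.67 ± 1.77 to 0.363 ± 0.310 TPM (SD, n = 3 and 10) and fell by 2.499 on the log2 scale (limma adjusted P = 1.44e-05). Both passed the filter through the WT ovaries alone, and none of the 3 receptor genes that fell would have passed it on the tumors, so this count is only a description. Among 16 other chemokine and cytokine genes 14 were tested and 1 fell, Cxcl12, which fell by 2.43 on the log2 scale (limma adjusted P = 0.0432), while Cxcl16, at -1.10, did not pass (limma adjusted P = 0.112). Cxcl12 was not called after median-of-ratios scaling (limma adjusted P = 0.0613) or without MP tumors 2 and 10 (limma adjusted P = 0.0663), and the median of the 14 was -0.22 as deposited and 0.28 after that scaling.

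Markers of the cells that make or answer these chemokines were measured in the same libraries. In bulk tissue, fewer cells of a type and less RNA per cell cannot be told apart. Beside the list counts here and in the next paragraph, 14.3% of all tested genes fell, or 11% after median-of-ratios scaling. The summed level of 10 leukocyte markers was 155 to 338 TPM in WT ovaries and 44.9 to 228 TPM in MP tumors, and 1 of the 10 fell, Cd52, which fell by 2.02 on the log2 scale (limma adjusted P = 0.0129), Itgb2 being at -1.60 (limma adjusted P = 0.0882). After median-of-ratios scaling Cd52 was at -1.31 and 0 of the 10 were called (limma adjusted P of Cd52 = 0.0912). Markers of T and NK cells, in TPM as deposited and not rescaled, summed to 32.4 to 47.2 in WT ovaries and 3.24 to 29.9 in MP tumors. Of 11 tested (19 listed) 5 fell, or 2 after median-of-ratios scaling. Among them Cd3g fell by 1.41 on the log2 scale (limma adjusted P = 0.000147) and Trbc1 fell by 1.44 (limma adjusted P = 0.00538), but 4 of the 5, with Cd3g and Trbc1 among them, would not have passed the filter on the tumors. Of the 19, 8 were under 1 TPM in all MP tumors and 7 in all WT ovaries, with Cd3e, Cd8a and Ncr1 under it in both groups. Macrophage markers overlapped between the groups, at 1653 to 4018 and 777 to 4084 TPM, and 1 of 12 fell, while the log2 fold change of Csf1r was -2.10 (limma adjusted P = 0.103).

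Dendritic cell markers fell in 3 of 7 tested cases (10 listed), of which Clec9a fell by 2.51 on the log2 scale (limma adjusted P = 4.32e-05) and Cd209a fell by 1.56 (limma adjusted P = 0.00691), neither of which would have passed the filter on the tumors. Of 7 neutrophil markers 4 were tested and 0 passed, the log2 fold change of S100a9 being 1.69 (limma adjusted P = 0.0757) and that of S100a8 1.35 (limma adjusted P = 0.160). Ovarian markers fell in 11 of 12 cases, with log2 fold changes of -3.78 for Cyp19a1 and -6.09 for Zp3, and 4 of the 11, both of these included, passed the filter only with the WT ovaries counted. Epithelial markers fell in 4 of 8 tested (9 listed), with log2 fold changes of -2.91 for Cdh1 and -3.58 for Epcam. After median-of-ratios scaling 3 of the 8 fell, and without MP tumors 2 and 10 also 3. Of the 4 as deposited, 2 passed the filter only with the WT ovaries counted, Cdh1 among them. The list's summed level in MP tumors 4, 9 and 5 (1201, 620 and 339 TPM) was above that of every WT ovary (289 to 320 TPM). Fibroblast markers fell in 2 of 8 cases, with log2 fold changes of -4.13 for Pdgfra and -3.77 for Lum (the call of Lum being lost after median-of-ratios scaling, limma adjusted P = 0.0589, and without MP tumors 2 and 10, limma adjusted P = 0.0655), and endothelial markers in 4 of 7, with -3.37 for Tek and -3.36 for Cldn5. The summed fibroblast markers were 1419 to 2407 TPM in WT ovaries, and MP tumors 9 and 5 were above that range with 4745 and 2500 TPM. None of these 4 lists held a marker that rose. The part of these cell types in the levels of the 9 genes was not tested.

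**Figure D5:**
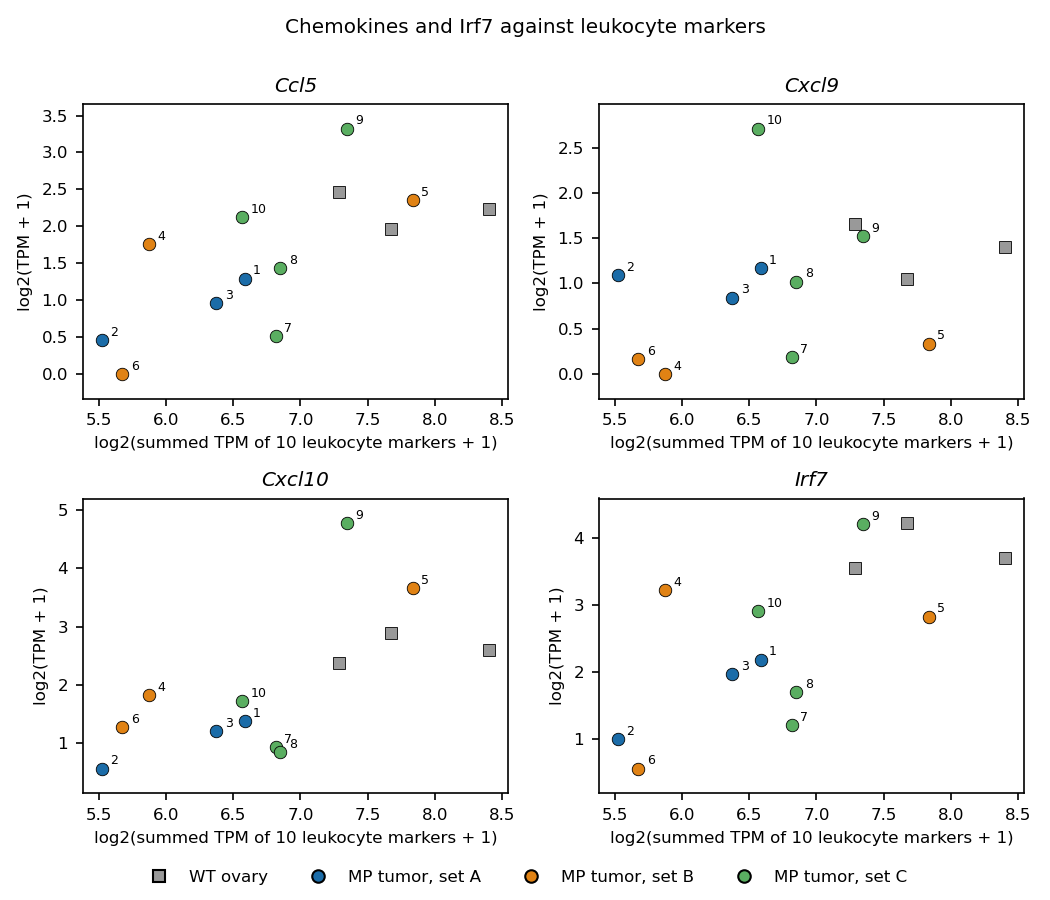
log2(TPM + 1) of Ccl5, Cxcl9, Cxcl10 and Irf7 against the log2 of the summed TPM of 10 leukocyte markers + 1, with 1 point per library, MP tumors numbered and colored by library set and WT ovaries as grey squares. MP tumors 5 and 9 have the highest marker sums of the tumors, 228 and 162 TPM, and the highest Cxcl10.

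Over the 10 MP tumors, each of the 8 detected genes was correlated with the summed leukocyte markers on the log2 scale, 8 relations in all. Ccl5 gave Pearson r = 0.69 (permutation P = 0.0260, adjusted 0.115) and Spearman rho = 0.70 (permutation P = 0.0299, adjusted 0.239). Cxcl10 gave r = 0.69 (permutation P = 0.0287, adjusted 0.115) and rho = 0.44 (permutation P = 0.203, adjusted 0.393). None of the 8 passed adjustment, and r for the others ranged from 0.14 for Cxcl9 to 0.58 for Tmem173. After median-of-ratios scaling r was 0.36 for Ccl5 and 0.29 for Cxcl10. Without MP tumors 5 and 2, the 2 farthest from the median marker sum, r was 0.62 for Ccl5 and 0.49 for Cxcl10, and rho was 0.45 and -0.07 (8 tumors, exact permutation P of r = 0.1002 and 0.273). Of the others, Tmem173 was then at r = 0.11 and Cxcl9 at r = 0.49. Each set held at most 4 MP tumors, too few for a value within it.

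The chemokines were also set against Ptprc, the pan-leukocyte gene for CD45, within each library. The log2 ratio of Cxcl10 to Ptprc (TPM + 1) was 0.11 to 0.89 in WT ovaries and -0.47 to 2.79 in MP tumors, with medians of 0.39 and 0.25. MP tumors 9, 5 and 4 were above the WT range with 2.79, 1.63 and 0.99, while 4 tumors were within it and 3 below it. For Ccl5 the ratio was -0.25 to 0.48 in WT ovaries and -0.65 to 1.34 in MP tumors, with MP tumor 9 again highest, and 3 tumors were above, 4 within and 3 below the WT range. The 3 below were MP tumors 2, 6 and 7, which held 2, 0 and 1 Ccl5 reads, so their places rest on the floor of detection. For Cxcl9 it was -1.08 to -0.33 in WT ovaries and -1.69 to 1.30 in MP tumors, with medians of -0.94 and -0.38, and 5 tumors were above, 4 within and 1 below the WT range. MP tumors 4, 5, 6 and 7, listed as within or below it, held 0, 1, 1 and 1 Cxcl9 reads. Their places against the WT range cannot be told at this depth.

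The genes whose levels followed each of these most closely over the 10 MP tumors were named by Pearson r on log2(TPM + 1) among 10925 or 10926 genes with a mean of at least 5 TPM in tumors. These are descriptions over 10 points that share libraries and depth. For Irf7 they were Rsad2 (r = 0.98) and Rtp4 (0.96), both known as interferon-stimulated genes, and for Ccl5 they were Rsad2 (0.96) and Samd9l (0.95). For Cxcl10 they were Cnmd (0.98) and Thbs2 (0.97), genes of the secreted glycoproteins chondromodulin and thrombospondin, of which Thbs2 ran from 3.34 to 176 TPM over tumors and Cnmd from 0 to 100.05 TPM with a median of 0.483. MP tumors 9 and 5, highest for Cxcl10, were also highest in the sum of 8 fibroblast markers, and no other tumor exceeded 638 TPM. For Tmem173 the closest were Ier3 (0.98) and Tmem176a (0.97), for Mb21d1 Zeb2 (0.96) and Sept6 (0.96), for Tbk1 Aga (0.96) and Pdgfd (0.95), for Irf3 Gng5 (0.98) and Yipf4 (0.97), and for Cxcl9 Platr25 and 1300002E11Rik (0.89 each). The window before the start of Rsad2 held 1 ISRE-like match, and that of Samd9l, Thbs2 and Cnmd none.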

How the data were processed

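Single-end reads of 76 bp were made from polyA-selected RNA of 3 WT ovaries and 10 MP tumors. The authors deposited 1 table of TPM values for 53465 genes, with each gene's position and length and without pooling of replicates. The labels name hg19, HTSeq and RPKM in 1 place, whereas the submitters' processing notes list mm10/GRCm38, FastQC 0.11.5, Trimmomatic 0.36, STAR 2.5.3a and featureCounts 1.6.3. The table holds mouse genes and TPM, which were used as deposited. Columns were matched to samples by description, and 0 columns of other samples were left out. Within a library, the product of TPM and length moved in whole steps (100% of values, tolerance 0.02), each taken as 1 read. One read in 1 kb was worth 0.0513 to 0.790 TPM. Limits for a count of 0 cover counting error only.

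The 17277 genes that reached 1 TPM in 3 or more libraries entered limma 3.58.1 (trended, robust) in R 4.3.3 on log2(TPM + 1), 10 tumors against 3 ovaries with no covariate, with Benjamini-Hochberg adjustment over all of them and a threshold of 0.05. A fold change on this scale understates that of scarce genes. The members and lists were chosen with earlier results of these data known. Named genes are the 9 members, Il6 and Ifnb1, the 2 largest moderated statistics per list, and the 2 genes most like each member over tumors (mean of at least 5 TPM); others (Banf1, Rnaseh2b, Sqstm1, Ifih1, Cd3e, Cd8a, Ncr1, Ptprc, Atrip) were named for their role after their values were seen. One gene that this rule takes is not reported here. Correlations used 100000 permutations, or all of them with fewer than 10 tumors, 2-sided. Alternatives varied the pseudocount, filter, scaling, library set, replicate block, single libraries, limma options, voom on the reads, and protein-coding genes, and without MP tumors 2 and 10 was added after the data were seen. The scripts were tested on simulated data. Sequences come from RefSeq promoters of GRCm38.p6. Figures were drawn with matplotlib 3.10.9.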

Additional observations from a re-analysis of the deposited data

Results flagged for a closer look

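Among 15 measures over the 10 MP tumors, 4 had a highest tumor whose gap to the next, divided by the whole range, exceeded Dixon's critical value of 0.466, and chance flags about 1 in 20 such groups where values are normally distributed. On log2(TPM + 1), a scale added after the data were seen, none of the 4 exceeded it (0.269 for Irf7, 0.291 for Ccl5, 0.267 for Cxcl10 and 0.438 for Cxcl9). MP tumor 9 was highest in 3 of them. It held 17.4 TPM of Irf7, against 8.34 in the next tumor (gap over range 0.536), 9.02 TPM of Ccl5, against 4.12 (0.543), and 26.4 TPM of Cxcl10, against 11.6 (0.572). Ccl5 rested there on 23 reads and Cxcl10 on 158. The library labelled MP tumor 10, in which Trp53 was at 187 TPM, held 5.54 TPM of Cxcl9 (26 reads), against 1.87 in the next tumor (0.662). MP tumor 9 had summed leukocyte markers of 162 TPM and summed fibroblast markers of 4745 TPM, and the part of either in its levels was not tested.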

How the results depend on the processing

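Over 26 other settings, no member was called higher, and none was called lower in 21. The settings that called members lower were set A alone (5 members, with 1112 genes higher and 9902 lower among all genes), the library set as covariate (2, with 894 and 8534) and voom on the reads (1, with 1879 and 4042). A fit with the replicate number as a block also called 5 (Mb21d1, Tmem173, Irf7, Ccl5 and Cxcl10), with 1087 genes higher and 9803 lower. The numbers do not pair the samples, since deviations of same-numbered libraries correlated at -0.10, -0.02 and 0.00. Leaving out 1 library at a time called 0 to 1 member, Irf7 without MP tumor 9. All genes gave 94 to 635 higher and 1158 to 3264 lower, against 433 and 2463 with all libraries. The lowest counts came without a WT ovary (135 and 1158, 153 and 1195, and 94 and 1185 without WT ovaries 1, 2 and 3).

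Genes higher and lower numbered 1274 and 1897 after median-of-ratios scaling, 1904 and 2091 after quantile normalization, with 1145 lower at a mean of at least 5 TPM and 678 higher among protein-coding genes alone. Without MP tumors 2 and 10, chosen after the data were seen, 675 were higher and 2901 lower (3.91% and 16.8%), and Irf7 was at -1.59 (limma adjusted P = 0.104). Log2 fold changes turned sign for 5 members, Mb21d1, Tbk1, Irf3, Cxcl9 and Cxcl10. Mb21d1 was at 0.43 after median-of-ratios scaling, 0.73 after quantile normalization, 0.16 with voom and 0.095 with protein-coding genes, and between -0.20 and 0.13 with 1 library left out. After median-of-ratios scaling Tbk1 was at 0.11 and Irf3 at 0.30, and after quantile normalization Tbk1 was at 0.0057, Irf3 at 0.079, Cxcl9 at 0.29 and Cxcl10 at 0.050. The correlation with leukocyte markers turned for Mb21d1 after median-of-ratios scaling (-0.36) and for Irf3 without MP tumors 2 and 10 (-0.049), and that of Irf3 ran from -0.070 to 0.53 with 1 tumor left out. The cause of these changes was not tested. Of the lists, median-of-ratios scaling left 0 leukocyte and 0 other chemokine genes called, 2 T and NK cell and 2 receptor genes, and 3 interferon signaling genes. Without MP tumors 2 and 10 these counts were 1, 0, 6, 2 and 5. Depth limits the chemokines in tumors, where Ccl5 and Cxcl9 did not exceed 27 reads and the median for Cxcl10 was 10.5.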
